A study of Mus musculus with 12 samples.

Results

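Apolipoprotein genes encode the protein part of the particles that carry lipid through the blood, and 10 of them were followed over the day in the transcription of mouse liver: *Apoa1*, *Apoa2*, *Apoa4*, *Apoa5*, *Apob*, *Apoc1*, *Apoc3*, *Apoe*, *Apoh* and *Apom*. They were chosen by name and not by their values, and all 10 were found among the 21490 gene symbols of the table. Nascent-Seq, which sequences RNA still bound to chromatin in purified nuclei, was performed on livers of wild-type C57BL/6 mice aged 3 to 6 months and held in 12 hr of light and 12 hr of darkness for 2 weeks or more. Livers were taken at ZT0, ZT4, ZT8, ZT12, ZT16 and ZT20 (zeitgeber time, in hr after lights on), with 2 replicates a time point and thus 12 libraries, and the labels of the groups differ in time alone. No time point is a control, and the sources used here do not give the number of animals behind a library.

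The hepatocyte is the main source of plasma apolipoproteins. Apolipoprotein B is the structural protein around which very-low-density lipoprotein is built, and A-I and A-II are the main proteins of high-density lipoprotein. Apolipoproteins A-V, C-I, C-III and E move between particles, where they set how fast triglyceride is hydrolysed and how the liver takes up remnants. Many enzymes of lipid metabolism in this organ follow the feeding cycle and the circadian clock, whose activator CLOCK:BMAL1 binds the E-box.

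By nascent RNA signal, most of these genes were among the highest of the liver. Of the 9 that could be tested, 0 differed between time points by limma's adjusted p, where 7.65% of all tested symbols did, a share that gives few or no calls among 9 genes. The signal is given in reads per base pair of exon (rpbp), which accounts for exon length. It does not account for GC content or for the 5′ to 3′ gradient that the paper describes in many genes, so levels of different genes are compared as signal. Of the 10 genes, 8 had a mean between 36.6 and 151.5 rpbp and ranked between 45 and 330 of the 21490 symbols, whereas *Apom* and *Apoa4* were low. Tests were run on symbols that exceeded 6 rpbp in 1 or more libraries, 6284 in all, and 9 of the 10 genes were among them. *Apom* passed through ZT4 replicate 2 alone (6.9 rpbp), and *Apoa4*, with at most 2.9 rpbp, was not tested.

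Facts of the libraries bear on every value below. The ZT8 and ZT20 libraries were run in 2 lanes and the other 8 in 1 lane, so lanes and time points cannot be told apart except within a lane class. The sum of all rpbp values ranged from 118342.4 to 160545.0 between libraries, and the median log2 deviation of the tested symbols from −0.20 in ZT16 replicate 2 to 0.13 in ZT0 replicate 2. The libraries also differed by exon GC content, with a difference between the highest and the lowest GC bin of −1.21 (log2) in ZT8 replicate 2 and 0.58 in ZT16 replicate 1. Hepatocyte markers summed to 868.4 to 2150.5 rpbp in a library (8 of 8 found). The ranges were 20.5 to 78.7 for Kupffer cells or macrophages (7 of 8 found), 14.0 to 28.0 for endothelial cells (6 of 6), 9.8 to 14.2 for stellate cells or fibroblasts (6 of 6), 1.0 to 2.5 for cholangiocytes (4 of 5), 2.5 to 8.2 for blood cells (4 of 5) and 6.8 to 16.9 for enterocytes (4 of 5), and no marker found was at 0 in all libraries. Most of the mean enterocyte sum was *Apobec1* (8.19 rpbp), which is also on the list of lipoprotein assembly genes below. The other enterocyte markers found had means of 1.56 (*Fabp2*), 0.25 (*Vil1*) and 0.05 rpbp (*Lct*). In whole liver, fewer cells of a type and less RNA per cell cannot be told apart.

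Reference promoter sequences were available for 8 of the 10 genes (RefSeq, GRCm38.p6, which is not the mm9 build of the table), and 4 are shown here: those of *Apoa1*, *Apoa2* and *Apoh*, whose libraries of 1 time point lay apart from all others, and that of *Apoa5*, which held an E-box. Each runs 5′ to 3′ over the 250 bases before the annotated start, all are on the plus strand, and capitals mark the motifs found.
Apoa1, chr9:46228380-46228629: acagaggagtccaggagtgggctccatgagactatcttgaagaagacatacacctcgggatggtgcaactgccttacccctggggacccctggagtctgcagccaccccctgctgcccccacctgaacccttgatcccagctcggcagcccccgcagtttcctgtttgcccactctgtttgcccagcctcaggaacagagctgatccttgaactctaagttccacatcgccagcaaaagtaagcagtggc
Apoa2, chr1:171224804-171225053, the downstream of the starts listed: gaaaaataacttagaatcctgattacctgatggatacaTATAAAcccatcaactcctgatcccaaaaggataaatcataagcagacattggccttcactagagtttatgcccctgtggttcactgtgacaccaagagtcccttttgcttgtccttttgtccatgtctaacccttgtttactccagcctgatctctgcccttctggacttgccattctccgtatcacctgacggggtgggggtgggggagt
Apoa5, chr9:46268358-46268607: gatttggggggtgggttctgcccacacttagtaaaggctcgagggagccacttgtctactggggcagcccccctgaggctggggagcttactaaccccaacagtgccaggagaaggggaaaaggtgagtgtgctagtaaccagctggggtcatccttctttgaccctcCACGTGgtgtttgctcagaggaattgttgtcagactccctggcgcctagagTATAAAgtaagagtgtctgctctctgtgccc
Apoh, chr11:108395047-108395296: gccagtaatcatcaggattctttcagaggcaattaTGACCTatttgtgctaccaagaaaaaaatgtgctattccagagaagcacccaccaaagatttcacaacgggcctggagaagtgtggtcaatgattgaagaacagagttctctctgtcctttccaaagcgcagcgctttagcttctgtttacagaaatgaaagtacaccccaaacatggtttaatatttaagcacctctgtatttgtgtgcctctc
Motifs were searched on both strands in windows of 300 bases (250 before to 50 after a start), of which the 8 genes have 12. The E-box CACGTG was found in 2 of 12 windows, which overlap and hold the same letters of *Apoa5*, against 7.15% of 32851 promoters, and lay at position −82 from the annotated start in the sequence shown. The TATA box TATAAA was in 5 of 12 windows against 13.6% of all, and 2 of these are the overlapping windows of *Apoa5*. It lay at −31 in the *Apoa5* sequence shown, −60 in *Apob*, −212 in the *Apoa2* sequence shown, and −100 and −96 on opposite strands in *Apoe*. The nuclear receptor half-site AGGTCA was in 2 windows against 16.3%, both times on the opposite strand (read as TGACCT), at −238 from the other start of *Apoa2* and at −215 in *Apoh*. The D-box TTATGTAA (0.938% of all promoters), the HNF4 type site CAAAGTCCA (0.475%) and the C/EBP site TTGCGCAA (0.183%) were found in none of these windows. A match is a run of letters and not a measured site. The *Apoa1* sequence held none of the 6 motifs.

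The genes lie in a few clusters (mm9 coordinates). *Apoa1* (chr9:46036793-46038549, plus strand), *Apoc3* (chr9:46041134-46043380, minus strand), *Apoa4* (chr9:46048927-46051612, plus strand) and *Apoa5* (chr9:46076691-46080002, plus strand) follow each other on chromosome 9 with 2584, 5546 and 25078 bp between them. *Apoc1* (chr7:20274834-20277982) and *Apoe* (chr7:20281616-20284381), both on the minus strand, are 3633 bp apart. *Apoa2* (chr1:173155220-173156501, plus), *Apob* (chr12:7984454-8023641, plus), *Apoh* (chr11:108256627-108275705, plus) and *Apom* (chr17:35265942-35268697, minus) are alone. These are whole-gene spans, and the signal covers the merged exons, from 537 bp in *Apoa2* and in *Apoc1* to 13934 bp in *Apob*. Reads were counted without strand. The listed span of *Capn8* includes *Apoa2*, because the table gives that symbol a single, very long span on chromosome 1 (chr1:94830985-184562483), and no other symbol overlapped a member.

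**Figure D1:**
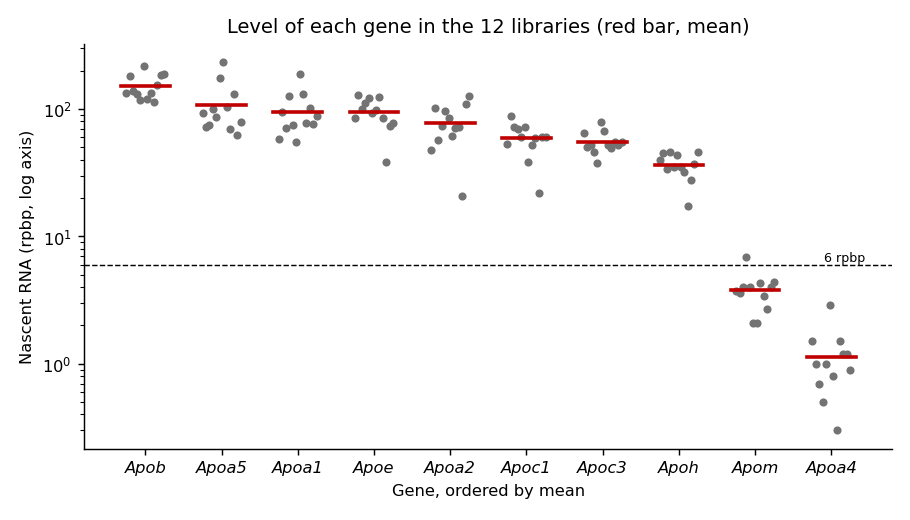
Nascent RNA signal (rpbp, log axis) of the 10 genes, ordered by mean; each point is 1 of the 12 libraries in time order from left to right, red bars are means and the dashed line is the limit of 6 rpbp. The 8 higher genes have means between 36.6 and 151.5 rpbp, and Apom and Apoa4 lie near or under the limit.

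The signal was ordered *Apob* (151.5 ± 33.9 rpbp, SD, n = 12 libraries), *Apoa5* (107.0 ± 50.6), *Apoa1* (95.8 ± 38.3), *Apoe* (94.9 ± 25.7), *Apoa2* (77.2 ± 29.3), *Apoc1* (59.0 ± 17.0), *Apoc3* (55.3 ± 10.9), *Apoh* (36.6 ± 8.51), *Apom* (3.77 ± 1.26) and *Apoa4* (1.12 ± 0.666). Neighbours in this order were compared within libraries by a two-sided exact sign-flip permutation test of the log2 ratio, adjusted over the 9 pairs. The test asks whether an order of signal repeats between libraries. It cannot tell a difference in transcription from a bias that a gene carries in every library. *Apob* exceeded *Apoa5* in 11 of 12 libraries (exact permutation test, adjusted p = 0.0286), and *Apoa2* exceeded *Apoc1* in 9 of 12 (exact permutation test, adjusted p = 0.0396). The steps from *Apoc3* to *Apoh* and from *Apoh* to *Apom* were seen in 12 of 12 libraries (exact permutation test, adjusted p = 0.0022 for both), and that from *Apom* to *Apoa4* in 11 of 12 (exact permutation test, adjusted p = 0.00293). The order was not resolved between *Apoa5* and *Apoa1* (0.669), *Apoa1* and *Apoe* (0.934), *Apoe* and *Apoa2* (0.0674) and *Apoc1* and *Apoc3* (0.907), where the values are adjusted p of the same exact permutation test. Together the 10 genes held 0.412% (ZT20 replicate 1) to 0.67% (ZT8 replicate 2) of the summed signal of a library.

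Neighbours in a cluster differed widely in level. *Apoa4*, known in the mouse as a product of intestine and, to a lesser degree, liver, gave 1.12 rpbp between *Apoc3* (55.3 rpbp) and *Apoa5* (107.0 rpbp). Beyond the clusters, *Zfp259* (13.4 rpbp) lay 1144 bp from *Apoa5*, and *Tomm40* (5.43 rpbp) lay 2292 bp from *Apoe*. Next to *Apoa2*, however, *Tomm40l*, 2574 bp away on the minus strand, was listed at 105.5 rpbp against 77.2 for *Apoa2*.

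To ask whether transcription changed over the day, 2 tests were run across all tested symbols. F24 is the share of a gene's variance between libraries that a 24-hr wave takes up. A gene was called rhythmic, by the criteria of the study's methods, where the one-sided permutation p was under 0.05 without adjustment, F24 exceeded 0.45 and the highest value exceeded 1.5 times the lowest. Differences of any shape between the 6 time points were tested by limma's moderated F-test on log2(rpbp + 1), with Benjamini-Hochberg adjustment over the 6284 symbols.

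Of the 9 genes tested, 1 (*Apoc1*) met the rhythm criteria, where 15.1% of all tested symbols did. None passed with the adjusted permutation p (0.923% of all symbols) or in limma's test of the 24-hr cosine terms (2.59%). In limma's F-test 0 of 9 had an adjusted p under 0.05, against 7.65% of all symbols, and 2 of 9 (*Apoh* and *Apoa1*) had an unadjusted p under 0.05, against 27.6%. Within the 4 time points of 1 lane, 0 of 9 passed limma's adjusted p (1.91% of all) and 1 (*Apoh*) the unadjusted (19.7%). Between ZT20 and ZT8, both run in 2 lanes, none passed the adjusted p (1.53% of all, 1.08% higher and 0.446% lower at ZT20) or the unadjusted (12.4%) of limma. The median F24 of the 9 genes was 0.233 beside 0.222 over all tested symbols, and the median share of variance between time points was 53.1% beside 63.3%.

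**Figure D2:**
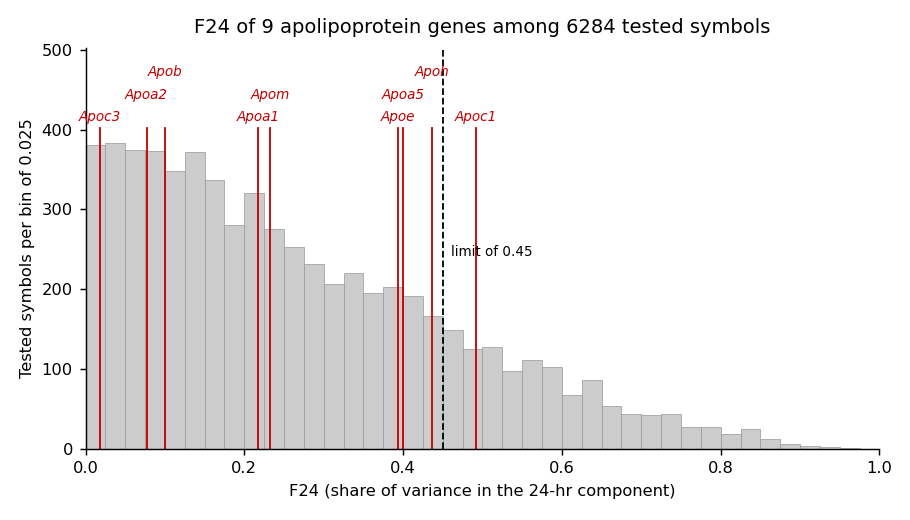
Distribution of F24 over all 6284 tested symbols (grey bars, symbols per bin of 0.025), with the 9 tested apolipoprotein genes as red lines and the limit of 0.45 dashed. Apoc1 (0.492) is the 1 gene beyond the limit, and the other 8 lie between 0.0183 and 0.436.

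**Figure D3:**
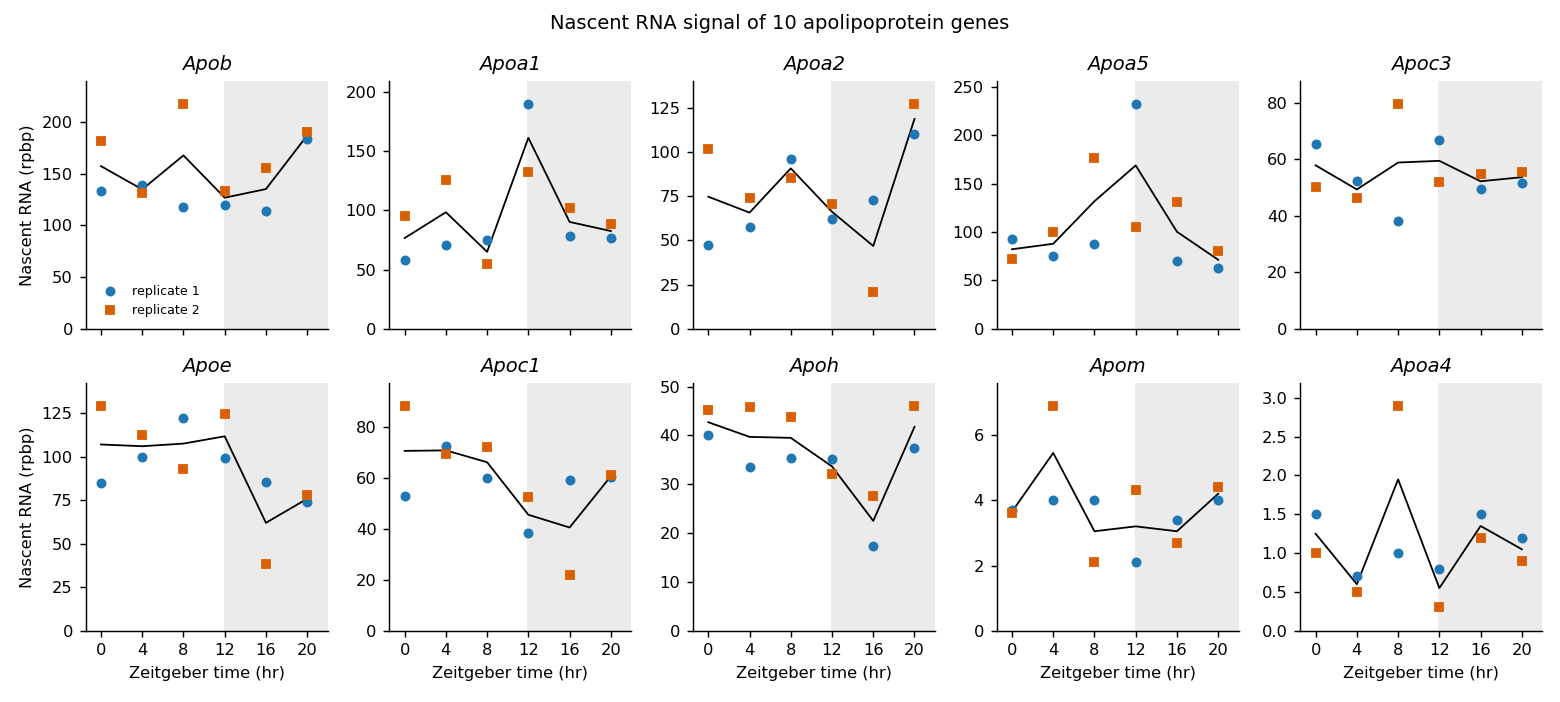
Nascent RNA signal (rpbp) of each gene against zeitgeber time (hr); circles and squares are replicates 1 and 2, the line joins the means of the 2 replicates and grey marks darkness. Replicates of a time point can lie as far apart as time points do, as for Apoa5 at ZT12 (232.8 and 104.8 rpbp), while both Apoa1 values at ZT12 lie above the rest.

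*Apob*, the scaffold of very-low-density lipoprotein, had the highest mean signal of the 10 genes. Its values from ZT0 to ZT20, replicate 1 before replicate 2, were 133.5 and 181.3, 138.8 and 131.0, 117.6 and 218.0, 120.2 and 133.5, 114.4 and 156.0, and 184.1 and 190.0 rpbp. The ZT20 pair was high and close together, but ZT8 replicate 2 was higher, and its ZT8 partner was among the lowest. The ratio of the highest to the lowest time-point mean (ZT20 over ZT12) was 1.47, the F24 was 0.0998 (permutation p = 0.616) and limma's adjusted p was 0.581. Without ZT8 replicate 2, the F24 of *Apob* was 0.585. That library had the steepest trend with GC content (−1.21, log2), and the *Apob* exons hold 43.5% GC. With the GC trend removed, ZT8 replicate 2 gave 171.6 rpbp, under ZT16 replicate 2 (185.6). The F24 over all 12 libraries was then 0.357 (permutation p = 0.14).

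*Apoa1* encodes the main protein of high-density lipoprotein, the activator of the cholesterol-esterifying enzyme LCAT. It gave 58.1 and 95.2 rpbp at ZT0, 71.1 and 125.9 at ZT4, 74.9 and 55.1 at ZT8, 190.4 and 132.5 at ZT12, 78.3 and 102.3 at ZT16, and 76.4 and 88.8 at ZT20. Both libraries of ZT12, at lights off, were above all other libraries, whose highest was 125.9. Such a separation at any time point, above or below, was seen for 3 of the 9 genes and for 34.2% of all tested symbols, and 7.67% of all had both ZT12 libraries on top. The ZT12 mean was 161.4 ± 40.9 rpbp and the lowest, at ZT8, 65.0 ± 14.0 (SD, n = 2 each), a ratio of 2.48. The F24 was 0.217 (permutation p = 0.337), and limma's F-test gave p = 0.0443 and adjusted p = 0.170. Both ZT12 libraries were run in 1 lane, and both had a positive trend with GC content (0.51 and 0.40, log2), as had ZT16 replicate 1, while the *Apoa1* exons hold 56.2% GC. With the GC trend removed, the ZT12 values were 171.8 and 111.3 rpbp, and the lower of them was under ZT4 replicate 2 (121.4) and ZT16 replicate 2 (112.8), so the separation was lost, and limma's adjusted p was 0.394. With libraries rescaled by the median ratio the separation was kept narrowly, at 122.4 rpbp in ZT12 replicate 2 against 119.8 in ZT16 replicate 2.

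*Apoa2*, the second protein of high-density lipoprotein, was highest at another time. Its values were 47.5 and 102.0 rpbp at ZT0, 57.6 and 73.9 at ZT4, 96.3 and 85.3 at ZT8, 61.9 and 70.5 at ZT12, 72.9 and 20.8 at ZT16, and 110.1 and 127.5 at ZT20. The ZT20 pair was above all other libraries, and the lowest value, in ZT16 replicate 2, was well under its partner. From ZT16 (46.9 ± 36.8) to ZT20 (118.8 ± 12.3, SD, n = 2 each) the means differed by 2.54 times, with an F24 of 0.0769 (permutation p = 0.697) and an adjusted p of 0.285 by limma. Leaving out ZT16 replicate 1 lowered limma's adjusted p to 0.0337, a fit that takes the low library as the only one of ZT16 and assumes that it varies as the other groups do. Against ZT8, the other time point of 2 lanes, ZT20 was higher by 0.38 ± 0.23 (log2, SE, 95% interval −0.16 to 0.93).

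*Apom*, a carrier of sphingosine-1-phosphate on high-density lipoprotein, was low in every library. It lay between 2.1 (ZT8 replicate 2 and ZT12 replicate 1) and 6.9 rpbp (ZT4 replicate 2), with a median of 3.85, and ranked 6793 of 21490 symbols. The libraries of its highest and lowest time points overlapped, the F24 was 0.233 (permutation p = 0.312) and limma's adjusted p was 0.469.

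*Apoa5*, which promotes the hydrolysis of triglyceride by lipoprotein lipase, carries the E-box shown above. It gave 92.4 and 71.9 rpbp at ZT0, 75.7 and 99.9 at ZT4, 87.2 and 176.4 at ZT8, 232.8 and 104.8 at ZT12, 69.7 and 130.8 at ZT16, and 62.7 and 79.9 at ZT20. The highest values were in 1 library of ZT8 and 1 of ZT12, and their partners lay within the range of the other time points. It varied most of the 9 tested genes, with an SD of 0.473 of the mean, beside a median of 0.252 over all tested symbols. The cosine peaked at 10.8 hr with an F24 of 0.4 (permutation p = 0.0766), and limma's adjusted p was 0.372. The F24 passed the limit without ZT8 replicate 1 (0.522, permutation p = 0.028) and without ZT12 replicate 2 (0.488, permutation p = 0.0419), each the lower of its pair. The log2 difference of ZT20 from ZT8 was −0.80 ± 0.36 (SE, 95% interval −1.67 to 0.07, limma adjusted p = 0.451).

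*Apoc3*, an inhibitor of triglyceride hydrolysis and of remnant uptake, had the lowest SD over mean of the 9 genes (0.197). The values were 65.4 and 50.4 rpbp at ZT0, 52.4 and 46.3 at ZT4, 38.0 and 79.8 at ZT8, 66.9 and 52.1 at ZT12, 49.5 and 55.0 at ZT16, and 51.8 and 55.6 at ZT20. Its lowest and its highest value were the 2 libraries of the same time point, ZT8. The time-point means stayed between 49.3 and 59.5 rpbp (ratio 1.21), the F24 was 0.0183 (permutation p = 0.923) and limma's adjusted p was 0.971. Between ZT8 and ZT20 the log2 difference was −0.04 with a 95% interval of −0.90 to 0.83, which includes changes in both directions.

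*Apoa4* exceeded 2 rpbp in 1 library alone. It gave 1.5 and 1.0 rpbp at ZT0, 0.7 and 0.5 at ZT4, 1.0 and 2.9 at ZT8, 0.8 and 0.3 at ZT12, 1.5 and 1.2 at ZT16, and 1.2 and 0.9 at ZT20. At a rounding of 0.1 rpbp and without read numbers in the table, differences of this size were not tested.

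*Apoc1*, an inhibitor of remnant uptake, was the 1 gene that met the rhythm criteria. Its values were 52.8 and 88.3 rpbp at ZT0, 72.3 and 69.2 at ZT4, 60.0 and 72.2 at ZT8, 38.5 and 52.5 at ZT12, 59.1 and 21.9 at ZT16, and 60.3 and 60.9 at ZT20. Of the 4 libraries of ZT12 and ZT16, 3 were the lowest of all, and ZT16 replicate 1 (59.1) lay within the range of the earlier times. The time-point mean was 70.8 ± 2.19 at ZT4 and 40.5 ± 26.3 at ZT16 (SD, n = 2 each). The F24 was 0.492 with a peak at 2.64 hr (permutation p = 0.0355), while the permutation p adjusted over all tested symbols was 0.263 and limma's adjusted p was 0.356. The call was lost when any 1 of 8 libraries was left out: ZT0 replicate 2, ZT4 replicate 1 or 2, ZT8 replicate 1, ZT12 replicate 1, ZT16 replicate 2, or ZT20 replicate 1 or 2. Over the 12 libraries left out in turn, the F24 ran from 0.42 to 0.633 and the permutation p from 0.00789 to 0.104. The limma F-test passed only without ZT16 replicate 1 (adjusted p = 0.0499). With the lanes as a block the F24 was 0.51 (permutation p = 0.0636), and after removal of the GC trend 0.399 (permutation p = 0.103).

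*Apoe*, the ligand by which remnants bind to receptors of the liver, had similar means at the first 4 time points. It gave 84.6 and 129.2 rpbp at ZT0, 99.6 and 112.2 at ZT4, 122.0 and 92.8 at ZT8, 98.9 and 124.3 at ZT12, 85.6 and 38.3 at ZT16, and 73.7 and 77.8 at ZT20. The 4 time points from ZT0 to ZT12 had means between 105.9 and 111.6 rpbp, and those of ZT16 (61.9 ± 33.4) and ZT20 (75.8 ± 2.90, SD, n = 2 each) were lower. Of the 8 earlier libraries 7 were above all 4 of these, and ZT0 replicate 1 (84.6) was below the highest of them (85.6). The F24 was 0.394 (permutation p = 0.0979) and limma's adjusted p was 0.271, so the lower level at ZT16 and ZT20 did not pass. After removal of the GC trend the F24 was 0.579 (permutation p = 0.0166), and without ZT0 replicate 2 it was 0.519 (permutation p = 0.0437). The log2 difference of ZT20 from ZT8 was −0.49 ± 0.24 (SE, 95% interval −1.06 to 0.09, limma adjusted p = 0.514).

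*Apoh* encodes beta-2-glycoprotein I, a plasma protein that binds anionic phospholipid, and it had the lowest p of the 9 genes in limma's F-test. The values were 40.1 and 45.3 rpbp at ZT0, 33.6 and 45.8 at ZT4, 35.3 and 43.7 at ZT8, 35.1 and 32.2 at ZT12, 17.4 and 27.6 at ZT16, and 37.4 and 46.1 at ZT20. Both ZT16 libraries were below all other libraries, whose lowest was 32.2. This separation was lost with libraries rescaled by the median ratio, where ZT16 replicate 2, the library with the lowest overall median, gave 32.3 rpbp and ZT12 replicate 2 gave 29.7, and with the GC trend removed, where they gave 31.3 and 29.0. The ZT16 mean was 22.5 ± 7.21 rpbp against 42.7 ± 3.68 at ZT0 (SD, n = 2 each), a ratio of 1.9. The adjusted p in limma's F-test was 0.154 over all time points and 0.209 within those of 1 lane. The F24 was 0.436 with a peak at 2.31 hr (permutation p = 0.0701), and it passed the limit without ZT4 replicate 1 (0.595, permutation p = 0.021), without ZT20 replicate 2 (0.551, permutation p = 0.0324) and with libraries scaled to an equal sum outside the 20 highest symbols (0.479, permutation p = 0.0461). It was lower with libraries rescaled by the median ratio (0.343, permutation p = 0.142) and with the GC trend removed (0.335, permutation p = 0.157). ZT16 was also where hepatocyte markers summed to the least, 1015.5 rpbp on average against 1289.6 to 1907.0 at the other time points, while Kupffer cell or macrophage markers summed to 42.0 rpbp against 31.1 to 49.8. Among the hepatocyte markers, *Alb*, *Ttr* and *Arg1* had their lowest mean at ZT16, while *Trf*, *Cps1*, *Hnf4a*, *Cyp2e1* and *Fabp1* had it at other time points. *Alb* gave 282.4 and 160.3 rpbp at ZT16. A list of 20 other secreted hepatocyte proteins, *Alb* among them, summed to 2289.1 rpbp at ZT16 against 2064.9 to 2638.9 at the other time points. The part of these levels in the *Apoh* values was not tested.

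The times of the extremes differed among the genes. *Apoa1*, *Apoa5*, *Apoc3* and *Apoe* had their highest mean at ZT12, *Apob* and *Apoa2* at ZT20, *Apoc1* and *Apom* at ZT4, and *Apoh* at ZT0. The lowest mean was at ZT16 for *Apoa2*, *Apoc1*, *Apoe* and *Apoh*, and at ZT8 and ZT16 alike for *Apom*. In *Apoc3* and *Apom* the libraries of the highest and the lowest time point overlapped.

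Correlations between the genes were mixed in sign. The Pearson correlation of log2(rpbp + 1) over the 12 libraries, given as a description since all pairs share the libraries and their scaling, ranged from −0.66 (*Apoc3* and *Apom*) to 0.78 (*Apoa2* and *Apoc1*) over 36 pairs, with a median of 0.11 and 20 pairs above 0. It exceeded 0.5 for 5 pairs: *Apoa2* and *Apoc1* (0.78), *Apoc1* and *Apoe* (0.75), *Apoa2* and *Apoe* (0.63), *Apoa5* and *Apoc3* (0.62) and *Apob* and *Apoh* (0.54). ZT16 replicate 2 was the lowest library in all of *Apoa2* (20.8 rpbp), *Apoc1* (21.9) and *Apoe* (38.3). For the first 3 pairs Spearman's rho was 0.55, 0.37 and 0.13, and Pearson's r without the 2 libraries farthest from the median of the first gene was 0.45, 0.34 and 0.16. For *Apoa5* and *Apoc3* rho was 0.55 and r without 2 libraries 0.11, and for *Apob* and *Apoh* they were 0.49 and 0.41. Leaving out the libraries most extreme in 1 gene narrows the range of that gene, which by itself tends to weaken r. It did not in every pair, as r of *Apoa1* and *Apom* was 0.05 with all libraries and 0.6 without 2. Sharing a cluster did not go with a high correlation throughout, as *Apoa1* correlated at 0.41 with *Apoa5* and at −0.12 with its nearest neighbour *Apoc3*.

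**Figure D4:**
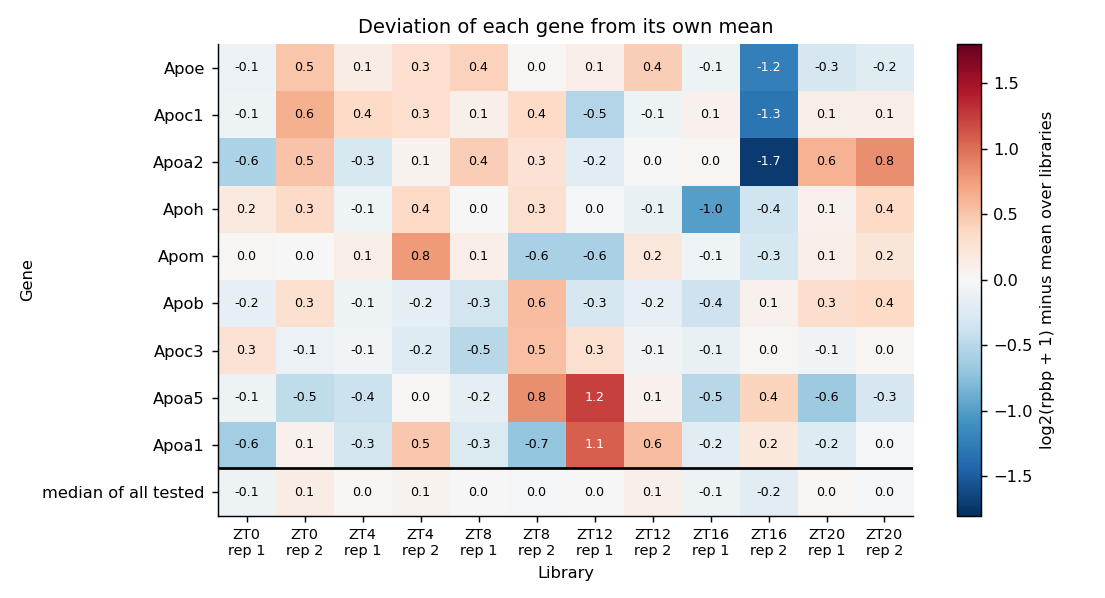
Deviation of each tested gene from its own mean over the 12 libraries, in log2(rpbp + 1), with the median of all tested symbols in the bottom row; red is above and blue below the mean. In ZT16 replicate 2, Apoa2, Apoc1 and Apoe are at their lowest while Apoa1 and Apoa5 are above their means, and the median of all tested symbols is −0.20.

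ZT16 replicate 2 was the lowest library for 3 of the 9 tested genes and for 20.9% of all tested symbols. *Apoc4* and *Apoc2*, which lie beyond *Apoc1* and were singled out after their values were seen, were also at their lowest there, with 10.3 rpbp against 29.8 to 57.7 in the other libraries for *Apoc4*, and 5.6 against 13.3 to 29.9 for *Apoc2*. Genes elsewhere were also at their lowest in this library, among them *Alb* (160.3 rpbp against 241.1 or more in the others) and *Ttr* (24.6 against 55.0 or more). *Apob*, *Apoa1*, *Apoa5* and *Apoc3* were not. Other secreted proteins of the hepatocyte went the other way, as *Fga* (192.7 rpbp), *Fgb* (339.2) and *Fgg* (262.2) were at their highest there. The ZT16 partner gave 85.6 rpbp for *Apoe* and 59.1 for *Apoc1*, so the low level was seen in 1 of the 2 ZT16 libraries.

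Further apolipoprotein genes passed neither test. Of 14 listed, 8 were found and 5 were tested: *Apoc2*, the activator of lipoprotein lipase, *Apoc4*, *Apof*, *Apon* and *Clu* (clusterin). None was called rhythmic (15.1% of all tested symbols) and none passed limma's adjusted p (7.65%). The median F24 of the 5 was 0.207.

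Among genes that assemble, remodel or take up lipoproteins (29 of 30 found, 23 tested), 5 met the rhythm criteria and 2 of these passed limma's adjusted p. The median F24 was 0.184. *Lipc*, hepatic lipase, differed between time points, from 5.75 ± 0.778 rpbp at ZT8 to 20.1 ± 0.141 at ZT20 (SD, n = 2 each, limma adjusted p = 0.0104), and *Angptl6* from 4.6 ± 0.566 at ZT8 to 15.8 and 16.2 in the ZT0 libraries (limma adjusted p = 0.0124). *Lcat*, which esterifies cholesterol on high-density lipoprotein with A-I as its activator, was rhythmic with a peak at 11.9 hr (F24 0.555, permutation p = 0.00658), with 26.4 ± 8.56 rpbp at ZT12 and 14.2 ± 2.62 at ZT0. *Angptl4*, an inhibitor of lipoprotein lipase, peaked at 11.6 hr (F24 0.599, permutation p = 0.0162), with 30.4 ± 0.849 rpbp at ZT12 and 6.2 ± 1.27 at ZT0. *Mia2*, needed for the export of large lipid cargo from the endoplasmic reticulum, peaked at 6.61 hr (F24 0.529, permutation p = 0.036). None of the 5 had an adjusted permutation p under 0.05 (0.125 to 0.265).

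Of transcription factors and cofactors known to act on apolipoprotein genes (26 of 26 found, 24 tested), 8 met the rhythm criteria and 4 passed limma's adjusted p, with a median F24 of 0.38. The difference from the apolipoprotein genes was not tested. *Nr1d1* and *Nr1d2*, the REV-ERB repressors of the clock, went from 1.65 ± 0.919 rpbp at ZT16 to 34.5 ± 8.70 at ZT8 and from 1.2 ± 0.566 at ZT20 to 14.2 ± 3.96 at ZT8 (SD, n = 2 each, limma adjusted p = 0.00118 and 0.015). *Cebpb* peaked at ZT12 (33.6 ± 11.7 rpbp against 5.5 ± 0.00 at ZT20, limma adjusted p = 0.0124) and was not called rhythmic. *Foxa2*, *Rora*, *Ppargc1b* and *Ppara* met the rhythm criteria with F24 values of 0.518, 0.493, 0.544 and 0.593, and their adjusted p in limma's F-test was 0.0707, 0.0871, 0.0929 and 0.138. *Ppara*, a receptor for fatty acids, had its highest mean at ZT8 (90.7 ± 15.9 rpbp).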

How the data were processed

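Nascent RNA of mouse liver was measured in 12 libraries, which were grouped by the time and replicate number in their labels. Per the labels, polyadenylated RNA was removed from chromatin-bound RNA before random-primed libraries were made for a Genome Analyzer II. The submitters' processing notes name CASAVA 1.7, TopHat and mm9. The deposited signal is the number of reads over the merged exons of a symbol per base pair, without strand, which the authors brought to an equal number of uniquely mapped reads and gave with 1 decimal. It is a coverage and not a count, and read numbers are not in the table, so no count model or counting interval was used, and the 2 replicates a time point limit the precision. The authors merged the 2 lanes of ZT8 and ZT20. Deposited rhythm statistics of the authors (a score for the 24-hr component, its phase and p-value) were not used. Blank lines (27919) were dropped. Because scaling is to uniquely mapped reads, a few very high symbols or a GC trend in 1 library can move all values of that library.

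Tests covered the 6284 symbols that exceeded 6 rpbp in 1 or more libraries. F24 was computed on linear values, with 100000 permutations of the values of a symbol. Limma 3.58.1 (R 4.3.3) was run on log2(rpbp + 1), with all groups sharing 1 estimate of the spread, and a log2 difference on this scale understates the change of low genes. Neighbouring levels were compared by exact sign-flip tests (Python 3.11.15). Exon GC content came from the mm9 genome and GENCODE M1 and was known for 86.3% of tested symbols. The steps were tested on simulated data.

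The 10 genes, the lists and the tests were chosen with earlier results of these data known, and support nothing by that choice. Beyond the 10, list genes were named where rhythmic or past limma's adjusted p (up to 8 a list, by smallest limma p), and so were the 5 symbols most like the mean profile. Some genes that this rule selects are not reported here. The study's text calls the samples independent and the replicates separate series, without the number of animals in each. Alternatives were limits of 3 and 12 rpbp or none, 0.1 rpbp added before log2, F24 on log2 values, adjusted permutation p, stricter limits (F24 over 0.6, ratio over 1.75), limma's test of the cosine terms, 2 rescalings, removal of the GC trend in 20 bins, replicate and lane blocks, each library left out, and each series alone (all 720 orders). The replicate block in the fits within a lane class was chosen after seeing the data.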

Additional observations from a re-analysis of the deposited data

How the results depend on the processing

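The number of apolipoprotein genes that met the rhythm criteria was 1 (*Apoc1*) in all 12 libraries. It was 0 with the adjusted permutation p, with the stricter limits, with F24 on log2 values, with libraries rescaled by the median ratio, with the lane block, in the replicate 2 series alone and by limma's test of the cosine terms. It was 2 (*Apoc1* and *Apoh*) with libraries scaled to an equal sum outside the 20 highest symbols, and between 0 and 2 when 1 library was left out. It stayed at 1 with the other limits on low values, with the replicate block, with the GC trend removed and in the replicate 1 series alone, but in the last of these and with the GC trend removed the gene was *Apoe*. The other limits on low values could not change the call of *Apoc1*, because its values and its unadjusted permutation p are the same under them. Over all alternatives, these among them, *Apoc1* lost its call in 16 of 25. The cause was not tested.

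The number that passed limma's F-test was 0 under all alternatives but 1: it was between 0 and 2 when 1 library was left out, and the 2 (*Apoa2* and *Apoc1*) appeared without ZT16 replicate 1. Within the 1-lane time points and between ZT8 and ZT20 it was 0 with 0.1 rpbp added and with the replicate block. The adjusted p of *Apoe* ranged from 0.0537 to 0.457 and that of *Apoh* from 0.0811 to 0.433 over 20 settings.

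Samples that shared a replicate number deviated together in some pairs of time points (5 of 15 with a correlation over 0.1, range −0.12 to 0.32, median 0.07). Since this did not hold for every pair and the labels name no shared litter, batch or day, the number was not taken to pair them. With the replicate block, 980 of all tested symbols met the rhythm criteria instead of 951, 1 apolipoprotein gene among them, and 455 passed limma's F-test instead of 481. Over all 6284 tested symbols, other rhythm counts moved by more than 1.5 times. They were 58 with the adjusted permutation p, 401 with the stricter limits, and 260 and 171 in the replicate 1 and replicate 2 series alone. With other limits on low values the number of symbols changed as well, to 507 of 2858 above 12 rpbp and 2217 of 20756 with no filter. Within the 1-lane time points, 42 symbols passed limma's F-test with the replicate block instead of 120. In 1 series the smallest p that 720 orders allow is 0.0167. Limma's count with no filter was 133 of 20756 symbols, instead of 481 of 6284.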

Other observations

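Other secreted proteins of the hepatocyte were measured beside the apolipoprotein genes. Of 20 listed and tested, 2 met the rhythm criteria (*Hp* and *Itih1*) and 3 passed limma's adjusted p (*Hpx*, *C3* and *Itih1*), with a median F24 of 0.266. *Hpx*, which binds heme, went from 33.5 ± 3.68 rpbp at ZT4 to 129.5 ± 27.2 at ZT16 (SD, n = 2 each, limma adjusted p = 0.00508). *C3*, a complement component, went from 60.9 ± 23.1 rpbp at ZT4 to 256.3 ± 93.3 at ZT0 (limma adjusted p = 0.0413), and *Itih1* from 27.9 ± 0.707 at ZT8 to 111.8 ± 38.0 at ZT0 (limma adjusted p = 0.0333). *Hp*, which binds hemoglobin, peaked at 14.0 hr (F24 0.647, permutation p = 0.00807), with 83.7 ± 18.5 rpbp at ZT16.

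Among the markers of cell types, the hepatocyte genes *Fabp1* and *Cyp2e1* met the rhythm criteria, with F24 values of 0.514 and 0.562. *Fabp1*, the fatty acid binding protein of liver, went from 24.3 ± 6.51 rpbp at ZT12 to 232.9 ± 84.1 at ZT8 (SD, n = 2 each, limma adjusted p = 0.00266). Of the Kupffer cell or macrophage markers *Clec4f* passed limma's F-test (adjusted p = 0.036), and of the endothelial markers *Clec4g* met the rhythm criteria (F24 0.608). No stellate cell and no cholangiocyte marker was above 6 rpbp. The 1 blood cell marker (*Ptprc*) and the 1 enterocyte marker (*Apobec1*) tested passed neither test.

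The tested symbols whose profile over the 12 libraries was most like the mean standardized profile of the apolipoprotein genes were *Sucla2* (r = 0.92), *Chd2* (0.92), *Tlcd1* (0.90), *Rnf111* (0.90) and *Map3k2* (0.89). They are the top of a search over all tested symbols. The apolipoprotein genes themselves correlated with the mean of the others at −0.113 (*Apoa5*) to 0.671 (*Apoh*), so that mean describes few of them. After rescaling by the median ratio the 5 values of r were 0.81 to 0.86.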
